A study of Mus musculus with 24 samples.

Results

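The 10 Krüppel-like factors described here are Klf2, Klf3, Klf4, Klf5, Klf6, Klf7, Klf9, Klf10, Klf13 and Klf15, taken by name from the 22282 genes of the mouse RNA-seq tables. All 10 were listed in the files, each as a single RefSeq transcript, and all 10 passed the filter of a mean of at least 1 FPKM, as did 14964 genes in all. FPKM is the number of fragments per kilobase of transcript, scaled to the size of the library. The data are 24 libraries in 8 groups of 3, all from C57BL/6J mice. MACs were amniotic fluid cells of embryos at E11.5 to E13.5, grown in amniotic cell medium. RACVECs were such cells after lentiviral transduction with Etv2, Erg and Fli1, driven by the PGK promoter, and culture in EC medium with an inhibitor of TGF-β signalling. Sox17-RACVECs carried Sox17 in addition, and Akt-RACVECs and Akt-MACs carried constitutively active, myristoylated Akt. Akt-LECs and Akt-liver ECs were lung and liver ECs isolated with anti-CD31 beads, transduced with the same Akt, cultured and sorted again for VEcad and CD31. LSECs were liver sinusoidal ECs sorted directly after intravital staining with anti-VEcad and isolectin, without culture or virus. Culture, transduction and time outside the animal therefore cannot be told apart in any comparison with LSECs.

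Krüppel-like factors are transcription factors with C-terminal zinc fingers that bind GC-rich and CACCC sequences. In endothelium, Klf2 and Klf4 are induced by laminar shear stress through the kinases Map3k2, Map3k3, Map2k5 and Mapk7 and the Mef2 factors, and they maintain a quiescent, anticoagulant and anti-inflammatory state. Cells in static culture are deprived of flow, so these genes bear on the question of how far cultured or converted cells keep the program of vessels that were perfused until the moment of isolation.

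The sequences before the starts of Klf2 and Klf4 are shown because Mef2 factors are the link from shear stress to these genes. RefSeq held a promoter for 8 of the 10 members, without Klf5 and Klf10, on GRCm38.p6. The 250 bases before the start of Klf2 (chr8:72318812-72319061, plus strand) and of Klf4 (chr4:55532476-55532725, minus strand) read as follows, 5′ to 3′, with matches to MEF2, CACCC and GGGCGG on either strand in capitals.
Klf2: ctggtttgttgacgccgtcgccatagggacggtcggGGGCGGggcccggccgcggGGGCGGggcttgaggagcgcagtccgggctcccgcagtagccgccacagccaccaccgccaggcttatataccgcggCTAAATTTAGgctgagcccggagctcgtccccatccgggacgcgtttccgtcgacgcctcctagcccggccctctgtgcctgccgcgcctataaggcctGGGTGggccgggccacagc
Klf4: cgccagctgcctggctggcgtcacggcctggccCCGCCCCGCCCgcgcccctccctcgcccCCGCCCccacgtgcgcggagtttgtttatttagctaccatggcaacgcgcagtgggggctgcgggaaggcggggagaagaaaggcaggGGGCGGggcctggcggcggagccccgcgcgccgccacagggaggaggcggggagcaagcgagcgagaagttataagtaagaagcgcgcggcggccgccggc
The MEF2 consensus was found once, from 118 to 109 bases before the start of Klf2, and in none of the other 7 promoters. Of 32851 RefSeq promoters, 0.508% held it in the same window. GGGCGG was found in 7 of the 8 members and in 32.7% of all promoters. CACCC was found in 6 of the 8 members and in 52.0% of all promoters. In Klf4 a pair of GGGCGG matches overlapped by a base. The CArG consensus, present in 1.47% of all promoters, and CCGGAA, the core of many Ets sites, present in 12%, were found in 0 of the 8 within this window. ACAAT, a Sox core present in 27.7% of all promoters, was found only before Klf9. The 8 windows held between 59.2% and 78.4% G and C, against a median of 52.4% over all promoters. These are matches of letters and not measured binding.

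Several libraries stood apart. The library labelled Sox17-RACVEC 2 listed Etv2 at 0, whereas the other 2 Sox17-RACVECs had 458 and 378 FPKM. It had an Erg of 387 FPKM, against 4.49 and 0 FPKM in the others, and it correlated at 0.962 with the mean of the Akt-RACVECs and at 0.879 with the other Sox17-RACVECs. Sox17 itself was listed at 5.09, 40.1 and 200 FPKM in Sox17-RACVECs 1, 2 and 3, and at 0 in the 3 RACVECs. Over all genes, 14 of 24 libraries correlated best with their own group and 10 with another. Akt-MACs 2 and 3 carried macrophage genes (Adgre1 1648 and 4105 FPKM), and Akt-LEC 1 and Akt-liver EC 1 carried mesenchymal genes (Col1a1 1065 and 556 FPKM). The endothelial markers summed to between 8.11 and 26.5 FPKM in MACs, between 1270 and 2543 FPKM in RACVECs and between 11490 and 14350 FPKM in LSECs, and the 5 liver sinusoidal markers to between 37240 and 49860 FPKM in LSECs. LSECs also held every listed marker of other liver and blood cells. The 6 hepatocyte markers summed to between 2106 and 12440 FPKM in LSECs and to at most 53.0 FPKM in cultured cells. Red blood cell markers summed to between 32770 and 37830 FPKM in LSECs and to at most 70.9 FPKM in cultured cells. Macrophage markers summed to between 10300 and 16650 FPKM in LSECs, which Akt-MAC 2 (10904 FPKM) and Akt-MAC 3 (35489 FPKM) reached or exceeded. Stellate cell markers summed to between 162 and 193 FPKM in LSECs and were higher in 5 cultured libraries, with 2148 FPKM in MAC 1. That sum was mostly Rgs5 (2138 FPKM), with Lrat listed at 0. Lrat was between 52.7 and 59.0 FPKM in LSECs and at most 7.1 FPKM in cultured cells. Of the 4 stellate cell markers, 2 were called higher and 0 lower in LSECs than in all cultured cells. Lymphocyte markers summed to between 58.6 and 87.6 FPKM in LSECs and were all listed at 0 in cultured cells. Smooth muscle and mesenchymal markers summed to at most 116 FPKM in LSECs and to 2227 to 5109 FPKM in MACs. Epithelial markers summed to at most 101 FPKM in LSECs and to 1170 FPKM in RACVEC 3, of which Krt19 alone was 1159 FPKM. In such bulk RNA, fewer cells of a type and less RNA per cell cannot be told apart. The 8 housekeeping genes checked had 0 values listed at 0.

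Klf6 and Klf2 were the leading members of the family. FPKM is per length, so levels can be compared between genes. Klf6, which is expressed in most tissues and takes part in wound repair and differentiation, had the highest FPKM of the 10 in 13 of the 24 libraries, Klf2 in 10 and Klf4 in 1, Akt-liver EC 3. In MACs, Klf2 made up between 1.95% and 6.78% of the summed FPKM of the 10 members, and in Akt-MACs between 3.73% and 6.39%. Its share was between 29.1% and 57.9% in LSECs and between 36.1% and 70.4% in Akt-RACVECs. Klf2 led in all 3 libraries of these last groups, and Klf6 led in all 6 of MACs and Akt-MACs.

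Klf2 (chr8:74842932-74845555 on mm9, plus strand, protein coding) had the widest range of the members in FPKM, whereas on the scale of log2(FPKM + 1) Klf5 ranged slightly wider. It was at 486, 638 and 2573 FPKM in LSECs 1, 2 and 3. In Akt-liver ECs it was at 77.6, 217 and 618 FPKM, and in Akt-LECs at 99.1, 559 and 427 FPKM. In both groups of cultured ECs the library numbered 1, which carried mesenchymal genes, was the lowest. MACs had 17.3, 42.4 and 76.6 FPKM and Akt-MACs 46.5, 27.3 and 69.9 FPKM. RACVECs had 172, 151 and 637 FPKM, Akt-RACVECs 2485, 1039 and 1458 FPKM, and Sox17-RACVECs 557, 2137 and 199 FPKM, with the highest in the library labelled Sox17-RACVEC 2. All 18 libraries of endothelial or converted cells therefore lay above all 6 of MACs and Akt-MACs. The lowest of the former, Akt-liver EC 1, exceeded the highest of the latter, MAC 3, by about a single FPKM. How many of all genes separate these libraries in the same way was not counted. By the mean of log2(FPKM + 1), the groups ran from Akt-RACVECs (10.60 ± 0.63, SD, n = 3) through LSECs (9.86 ± 1.29), Sox17-RACVECs (9.28 ± 1.72), Akt-LECs (8.17 ± 1.34), RACVECs (8.0 ± 1.14) and Akt-liver ECs (7.78 ± 1.49) to Akt-MACs (5.51 ± 0.66) and MACs (5.30 ± 1.05). Neighbours in this order overlapped except for Akt-liver ECs and Akt-MACs.

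**Figure D1:**
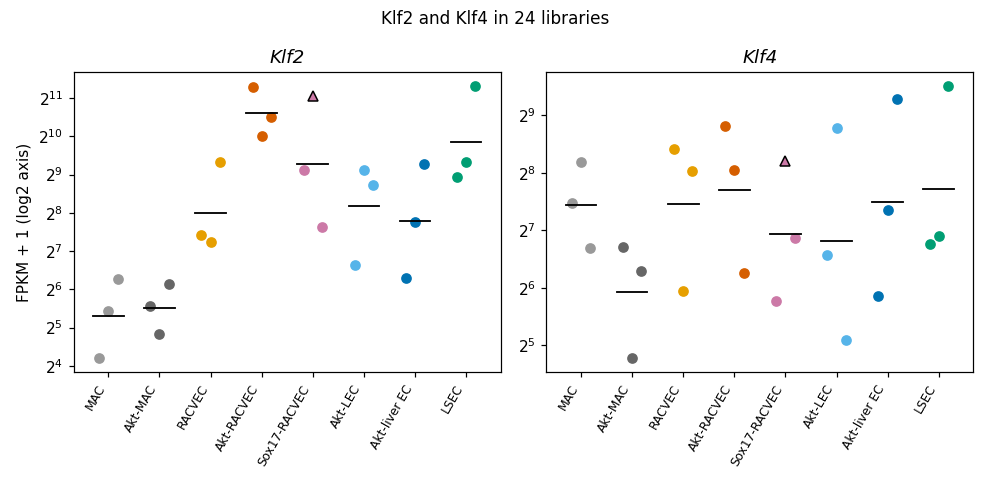
FPKM + 1 of Klf2 and Klf4 on a log2 axis in each of 24 libraries, with 3 points a group in the order of replicates 1 to 3, black lines at the mean of log2(FPKM + 1), and a triangle for the library labelled Sox17-RACVEC 2. Klf2 lay between 17.3 and 76.6 FPKM in the 6 libraries of MACs and Akt-MACs and above that in all others, whereas for Klf4 the MACs overlapped with LSECs and with both groups of cultured ECs.

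Klf4 (chr4:55540013-55545347 on mm9, minus strand, protein coding), the other flow-induced member and also a factor of epithelial differentiation and pluripotency, was spread as widely inside groups as between them. LSECs had 107, 118 and 734 FPKM. Akt-liver ECs had 57.3, 162 and 622 FPKM, and Akt-LECs 93.6, 437 and 33.2 FPKM. MACs had 176, 290 and 103 FPKM and Akt-MACs 104, 26.3 and 77.8 FPKM. The ranges of amniotic cells and of ECs overlapped, and LSECs 1 and 2 lay inside the ranges of both MACs and cultured ECs. RACVECs had 343, 60.6 and 260 FPKM, Akt-RACVECs 449, 263 and 75.1 FPKM, and Sox17-RACVECs 53.3, 296 and 115 FPKM. The difference between group means held 20.1% of the variance of log2(FPKM + 1) for Klf4 and 76.2% for Klf2. In the same library Klf2 exceeded Klf4 by 3.51 to 5.39 times in LSECs and by 3.94 to 19.4 times in Akt-RACVECs, whereas the ratio was between 0.0982 and 0.747 in MACs.

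LSECs were compared with all cultured cells, as the mean of the 7 cultured groups, to ask how the members differ between directly purified and cultured cells. Klf2, Klf7 and Klf15 were higher in LSECs and 0 members were lower, a share of 3 of 10, where 15.6% of all tested genes were higher and 15.3% lower. Klf2 had a log2 fold change of 2.05 ± 0.70 (SE) and an adjusted p of 0.0228, and Klf4 one of 0.61 ± 0.80 with an adjusted p of 0.544. The call of Klf2 rested on LSEC 3. Without that library its log2 fold change was 1.32 with an adjusted p of 0.222, that of Klf4 was -0.28, and of the 10 members 1, Klf7, remained called. Without the library labelled Sox17-RACVEC 2 the log2 fold change of Klf2 was 2.18 with an adjusted p of 0.0102. The 7 cultured groups include MACs and Akt-MACs, which were low in Klf2, so LSECs were also set against the cultured ECs alone, a comparison added after the values were seen. Against the mean of both cultured EC groups, Klf7 and Klf15 were higher, 2 of 10 members, and 0 were lower, where 14.2% of all genes were higher and 14.6% lower. Klf2 had a log2 fold change of 1.88 ± 0.80 with an adjusted p of 0.0696, so it missed the threshold, although without Akt-liver EC 3 it was called (2.26, adjusted p = 0.0339). That of Klf4 was 0.57 ± 0.92 with an adjusted p of 0.658. Against Akt-liver ECs, the cultured cells of the same organ, 1 of 10 members was higher, Klf7, and 0 lower, where 12.9% of all genes were higher and 14.1% lower. The log2 fold change of Klf2 was 2.08 ± 0.93 with an adjusted p of 0.0909, and 2.83 with an adjusted p of 0.0423 without Akt-liver EC 3. That of Klf4 was 0.23 ± 1.06 with an adjusted p of 0.906. The median log2 fold change of all genes was -0.12 between LSECs and all cultured cells. Scaling each library by its own median shift over all genes changed no call of a member there.

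**Figure D2:**
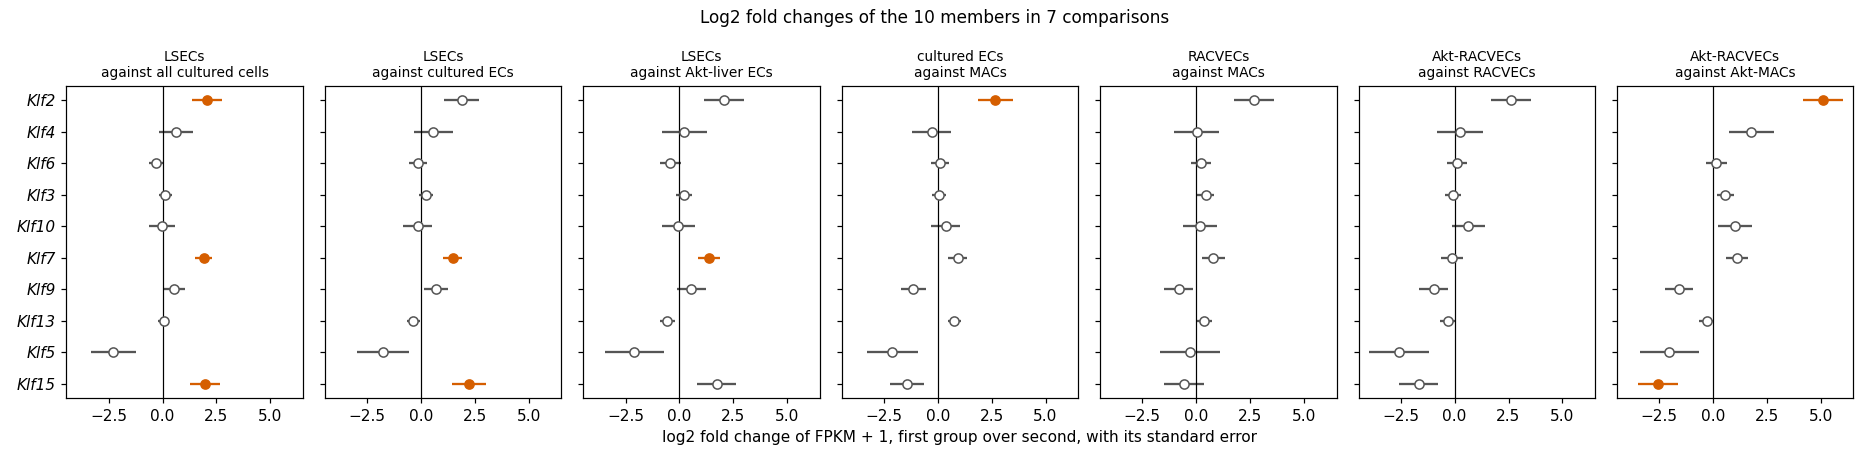
Log2 fold changes of FPKM + 1 with standard errors for the 10 members in 7 comparisons, with filled points for calls (fold change over 1 in size on the log2 scale, adjusted p below 0.05). Klf2, Klf7 and Klf15 were called, and Klf2 reached 5.09 in Akt-RACVECs against Akt-MACs, while the other 7 members had 0 filled points.

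Immediate early genes were measured beside the members. These genes, with heat shock genes, respond within minutes to handling and enzymatic dissociation of tissue, and Klf2, Klf4, Klf6 and Klf10 are known to be among the rapidly induced genes themselves. Of 15 such genes, 8 were higher in LSECs than in all cultured cells (Atf3, Dusp1, Hspa1a, Hspa1b, Jun, Junb, Socs3 and Zfp36), 0 were lower and 7 did not pass the test, with a median log2 fold change of 2.09. Hspa1a, an inducible heat shock chaperone, had a log2 fold change of 5.45 ± 0.46, and Jun, a subunit of AP-1, one of 2.08 ± 0.55. Fos, the partner of Jun, was not called and was at 818, 867 and 6608 FPKM in LSECs 1, 2 and 3. The mean log2(FPKM + 1) of the 15 genes was 8.64, 9.02 and 10.85 in LSECs 1, 2 and 3, with the highest of all 24 libraries in LSEC 3, which also had the highest Klf2 and the highest Klf4 of all libraries. Alb, the albumin of hepatocytes, was at 1951, 1211 and 7975 FPKM in the same 3 libraries and so was highest in LSEC 3 as well. Over the 24 libraries, which include group differences, the correlation with this mean was 0.46 for Klf2, 0.28 for Klf4, 0.14 for Klf6 and 0.03 for Klf10. With the group means removed it was 0.38 for Klf2, 0.21 for Klf4, 0.32 for Klf6 and -0.01 for Klf10. Among all members the highest value with the group means removed was that of Klf15, 0.498, and the lowest that of Klf7, -0.215. Klf3 had 0.272. Over the 24 libraries the correlation was 0.41 for Klf15, 0.305 for Klf7 and 0.326 for Klf3. The part of dissociation and of hepatocyte RNA in the levels of Klf2, Klf4 and Klf15 in LSECs was not tested.

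**Figure D3:**
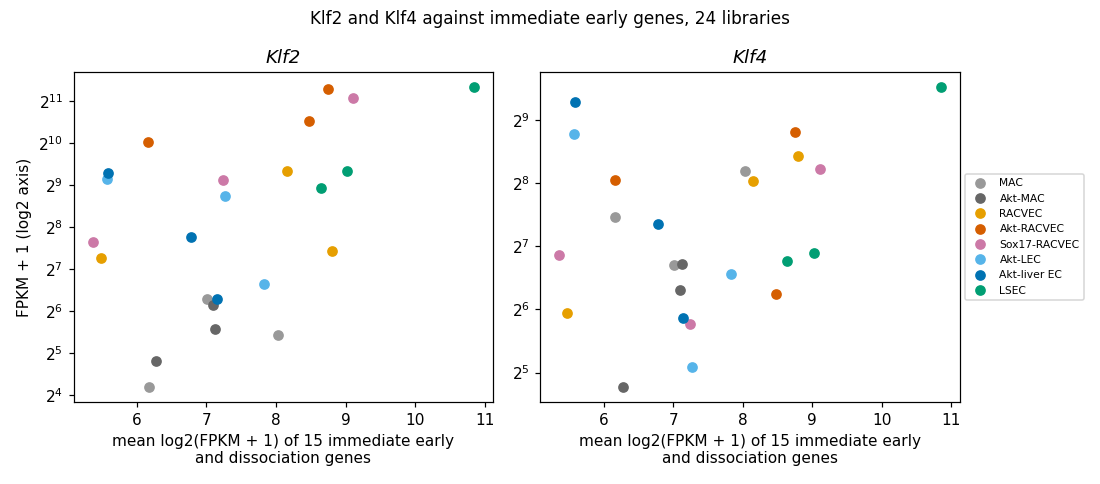
FPKM + 1 of Klf2 and Klf4 (log2 axis) against the mean log2(FPKM + 1) of 15 immediate early and dissociation genes, 1 point a library, coloured by group. LSEC 3 lay at the far right with a mean of 10.85 and had the highest Klf2 (2573 FPKM) and Klf4 (734 FPKM).

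Klf7 (chr1:64076021-64168856 on mm9, minus strand, protein coding), a broadly expressed member known from the development of neurons, was highest in LSECs. LSECs had 170, 123 and 111 FPKM. In Akt-liver ECs it was at 29.7, 74.9 and 57.0 FPKM and in Akt-LECs at 43.7, 75.8 and 25.4 FPKM. The other 5 groups were between 13.6 and 71.6 FPKM. All 3 LSECs thus lay above all 21 cultured libraries, which held for 1 of 10 members and for 9.64% of all tested genes, while 0 members had all 3 below, as 9.17% of genes did. The log2 fold change was 1.92 ± 0.39 against all cultured cells (adjusted p = 0.000607), 1.47 ± 0.45 against cultured ECs (adjusted p = 0.0138) and 1.37 ± 0.52 against Akt-liver ECs (adjusted p = 0.0467). In the first of these, Klf7 was called under every alternative and without each library in turn. Against cultured ECs it missed the threshold without LSEC 1 (adjusted p = 0.0729) and without 5 libraries that stood apart (0.0623). Against Akt-liver ECs it missed it without any of the LSECs (adjusted p = 0.147, 0.083 and 0.0712 without LSECs 1, 2 and 3), Akt-liver EC 1 (0.19) or Akt-liver EC 3 (0.0763), without the 5 libraries (0.23), with a pseudocount of 0.1 (0.0501) and with no filter on low values (0.053), with log2 fold changes from 1.0 to 1.5. The levels of Klf7 in the other cell types of liver and blood whose markers LSECs carried were not tested.

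Klf15 (chr6:90412570-90425232 on mm9, plus strand, protein coding), a glucocorticoid-induced and circadian regulator of metabolism, was a low-level member. It was at 7.79, 10.9 and 18.6 FPKM in LSECs. Cultured ECs had 4.72, 0.66 and 4.82 FPKM in Akt-liver ECs and 5.90 FPKM and 2 values listed at 0 in Akt-LECs. MACs had 3.35, 27.7 and 2.18 FPKM, Akt-MACs 6.81, 17.4 and 4.32 FPKM and RACVECs 9.36, 0.71 and 5.91 FPKM. It was listed at 0 in 2 of 3 Akt-RACVECs and in all 3 Sox17-RACVECs. LSECs thus lay above every cultured EC and overlapped with MACs, Akt-MACs and RACVECs. How many of all genes separate LSECs from cultured ECs in this way was not counted. The log2 fold change was 1.97 ± 0.69 against all cultured cells (adjusted p = 0.0258) and 2.24 ± 0.79 against cultured ECs (adjusted p = 0.0302). It rested on the pseudocount, being 0.69 and 0.82 with a pseudocount of 10, under the limit of 1. Without LSEC 2 or LSEC 3 the first call was lost (adjusted p = 0.0727 and 0.136), and the second was lost without any of the 3 LSECs, Akt-LEC 2, Akt-LEC 3 or Akt-liver EC 2, with adjusted p from 0.05 to 0.126. Of the 8 glucocorticoid and circadian genes, 7 were tested and 3 were higher in LSECs than in all cultured cells, 0 lower, with a median of 1.53. Tsc22d3, an anti-inflammatory glucocorticoid target, had a log2 fold change of 3.23 ± 0.36, Sgk1, a kinase induced by the same hormone, 2.15 ± 0.50, and Nr1d1, a repressor of the clock, 1.53 ± 0.38. Klf9 (chr19:23215716-23241401 on mm9), also induced by glucocorticoids, was at 99.7, 85.8 and 135 FPKM in LSECs, inside the range of 13.9 to 244 FPKM of the cultured cells, with a log2 fold change of 0.54 ± 0.50 and an adjusted p of 0.391.

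Klf5 (chr14:99697910-99712624 on mm9, plus strand, protein coding), a factor of epithelia and smooth muscle, was listed at 0 in all 3 LSECs. It was above 0 in all MACs (17.8, 14.97 and 9.60 FPKM), Akt-MACs (24.4, 1.57 and 7.44 FPKM) and RACVECs (4.52, 1.16 and 147 FPKM). In cultured ECs it was highest in the libraries numbered 1, at 14.6 FPKM in Akt-liver EC 1 and 18.8 FPKM in Akt-LEC 1, and at most 1.72 FPKM in the other 4. RACVEC 3, with 147 FPKM, also had 1159 FPKM of the keratin Krt19, and Akt-liver EC 1 had the highest sum of epithelial markers, 1546 FPKM. In all, 8 of 24 libraries listed Klf5 at 0. The difference between LSECs and all cultured cells had an adjusted p of 0.0819 and was not called, but with a pseudocount of 0.1 it was (adjusted p = 0.0243), as it was without RACVEC 2 (adjusted p = 0.049). Whether cells with epithelial or mesenchymal markers had a part in these levels was not tested.

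**Figure D4:**
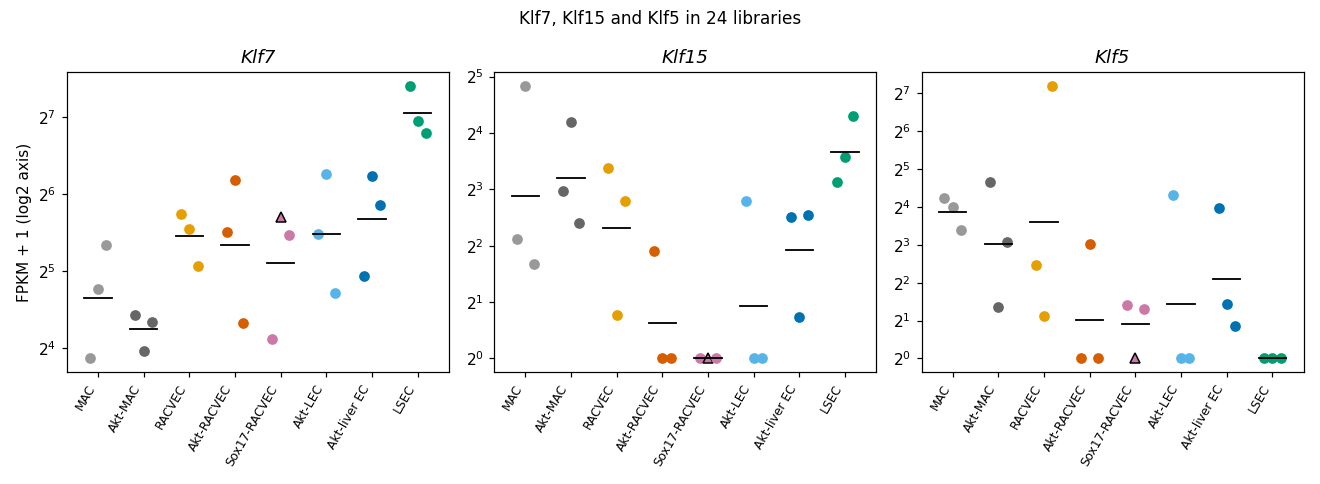
FPKM + 1 of Klf7, Klf15 and Klf5 on a log2 axis in each of 24 libraries, drawn as in the plot of Klf2 and Klf4. The 3 LSECs were above all 21 cultured libraries for Klf7 and listed at 0 for Klf5, and Klf15 was below 30 FPKM throughout.

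Klf3, Klf6, Klf10 and Klf13 were above 0 in every library and were called in 0 comparisons. Klf6 (chr13:5860735-5869639 on mm9) was between 173 and 813 FPKM. Klf3 (chr5:65194628-65221368), a repressor that recruits CtBP, was between 129 and 532 FPKM, with the highest value in the library labelled Sox17-RACVEC 2 and at most 253.4 FPKM in all others. Klf10 (chr15:38221219-38230464), an early target of TGF-β, was between 42.9 and 569 FPKM. Klf13 (chr7:71031237-71083801), a regulator of lymphocyte and heart genes, was between 36.8 and 122 FPKM. The spread between replicates (pooled SD of log2 values) was 0.44 for Klf13, 0.50 for Klf3, 0.61 for Klf6 and 1.03 for Klf10. Across the 8 groups, an F test called 3 of 10 members as differing, Klf2 (adjusted p = 0.000788), Klf7 (0.00729) and Klf15 (0.0168), where 54% of all tested genes were called. Of the 4 partners and corepressors Ctbp1, Ctbp2, Sin3a and Fhl3, 0 were called between LSECs and all cultured cells, and 0 had been called in the other 11 comparisons.

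**Figure D5:**
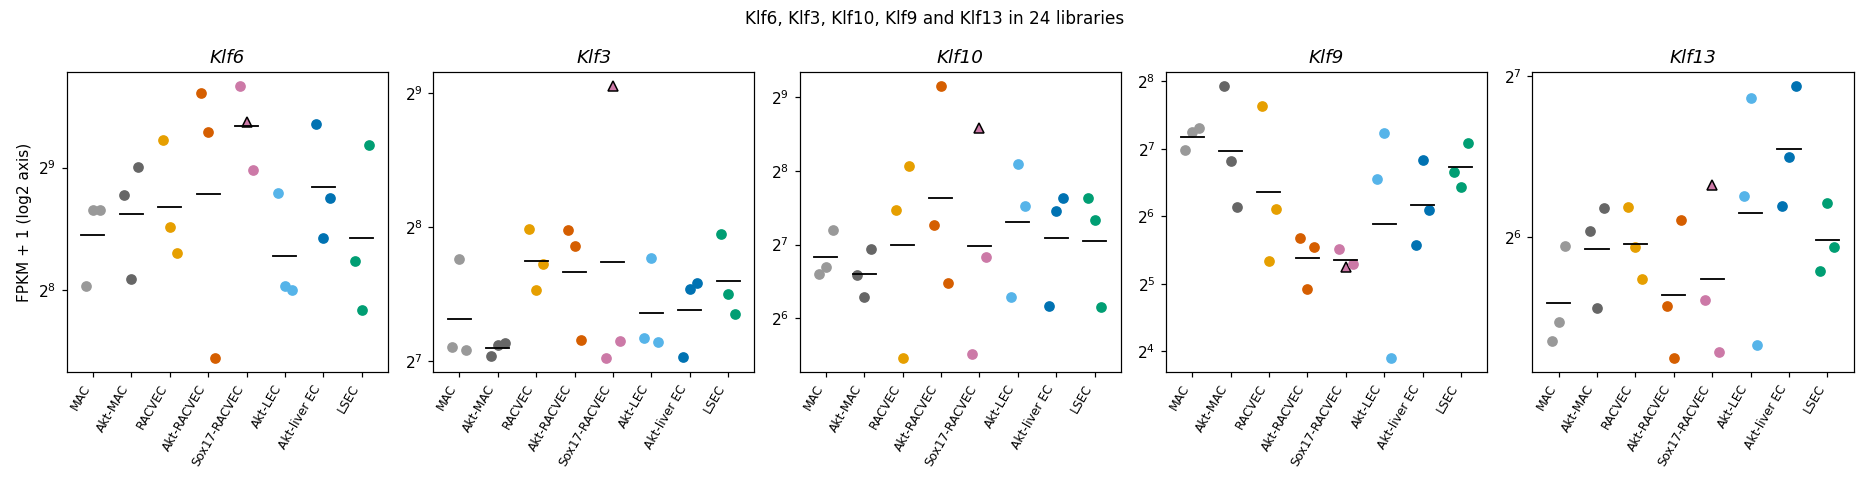
FPKM + 1 of Klf6, Klf3, Klf10, Klf9 and Klf13 on a log2 axis in each of 24 libraries, drawn as in the plot of Klf2 and Klf4. None of these 5 genes was called in a comparison, and Klf3 was highest, at 532 FPKM, in the library labelled Sox17-RACVEC 2.

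The conversion of amniotic cells was followed from MACs to ECs. Between cultured ECs and MACs, 1 of 10 members was higher, Klf2, and 0 lower, where 7.3% of all genes were higher and 7.51% lower. For Klf2 it was 2.67 ± 0.80 on the log2 scale with an adjusted p of 0.026. It missed the threshold when only these groups were fitted (adjusted p = 0.0882) and without MAC 1, MAC 2, Akt-LEC 2, Akt-LEC 3 or Akt-liver EC 3, with adjusted p from 0.0509 to 0.144. Without the 5 libraries that stood apart it was larger, at 3.42. Between RACVECs and MACs, 0 of 10 members were called, and 1, Klf2, had an unadjusted p below 0.05. In all genes 1.36% were higher and 1.35% lower. All 3 RACVECs exceeded all 3 MACs in Klf2, a separation whose share among all genes was not counted. The log2 fold change was 2.70 ± 0.93 with an adjusted p of 0.121. This was close to the 2.67 of cultured ECs, which shares the same MACs, but it did not pass the threshold over all genes. RACVECs differed from MACs in the Ets factors, the medium and the TGF-β inhibitor together. Cultured ECs differed from MACs in origin, active Akt and EC medium, which held the same inhibitor, together. In neither comparison can these be told apart. Klf4 had a log2 fold change of 0.02 ± 1.06 in RACVECs, with an adjusted p of 1.

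Active Akt was tested in both kinds of amniotic cell. Between Akt-RACVECs and RACVECs, 0 of 10 members were called and 1, Klf2, had an unadjusted p below 0.05, where 0.221% of all genes were higher and 0.0401% lower. The log2 fold change of Klf2 was 2.60 ± 0.93 (adjusted p = 0.18), and the lowest Akt-RACVEC (1039 FPKM) exceeded the highest RACVEC (637 FPKM). The share of all genes with such a separation was not counted. Between Akt-MACs and MACs, 0 of 10 members were called and 0 had an unadjusted p below 0.05, where 2.59% of all genes were higher and 0.214% lower. There the log2 fold change of Klf2 was 0.21 ± 0.93 with an adjusted p of 0.993. The difference between the Akt effects was 2.39 ± 1.31 for Klf2 with an adjusted p of 0.49, so the effects were not shown to differ. It was called for 0 of 10 members, with 0 below an unadjusted p of 0.05, and for 0.00668% of all genes as higher and 0.0936% as lower. The Akt-RACVECs were then set against Akt-MACs, which carry the same Akt without the Ets factors, a comparison added after the values were seen. Akt-RACVECs had also gone through conversion culture in EC medium with the TGF-β inhibitor. The medium of Akt-MACs is not given in the sources used here. The Ets factors and the conversion culture therefore cannot be told apart in this comparison. Klf2 was higher and Klf15 lower, where 6.15% of all genes were higher and 13.4% lower. For Klf2 the log2 fold change was 5.09 ± 0.93 with an adjusted p of 0.00121, and it was between 4.75 and 5.41 in all 15 alternatives of the fit and called in each. By the criterion of the study's methods, an unadjusted test on FPKM without logarithm, 0 of 10 members were called. For Klf15 the log2 fold change was -2.56 ± 0.91 with an adjusted p of 0.0489, and 11 of 14 alternatives did not call it. Klf7 was not called (1.09 ± 0.52, adjusted p = 0.132), but without Akt-RACVEC 3 it was (1.60, adjusted p = 0.0404). Akt-MACs 2 and 3 carried macrophage genes, with summed markers of up to 35490 FPKM, and without them and 3 other libraries Klf2 was still called at 5.03. Against cultured ECs, also added after the values were seen, 0 of 10 members were called in Akt-RACVECs, with Klf2 and Klf13 below an unadjusted p of 0.05, where 0.0802% of all genes were higher and 0.368% lower. There Klf2 had a log2 fold change of 2.63 ± 0.80 with an adjusted p of 0.129.

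Sox17 gave 0 called members between Sox17-RACVECs and RACVECs, with Klf15 below an unadjusted p of 0.05, where 0% of all genes were higher and 0.00668% lower. Klf2 differed by 1.28 ± 0.93 on the log2 scale with an adjusted p of 0.89, and without the library labelled Sox17-RACVEC 2 it was 0.38 with an adjusted p of 1. Between the cultured ECs of lung and liver, 0 of 10 members were called and 0 had an unadjusted p below 0.05, where 0% of all genes were higher and 0.0134% lower in Akt-LECs. The log2 fold changes there were 0.39 ± 0.93 for Klf2 and -0.69 ± 1.06 for Klf4.

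The pathway from shear stress to Klf2 and Klf4 was described with 14 genes. Between LSECs and all cultured cells 1 was higher and 1 lower, with a median of 0.25 against -0.12 over all genes. Mef2c, the Mef2 factor most restricted to muscle, neurons and endothelium, was at 186, 140 and 136 FPKM in LSECs, with a log2 fold change of 2.02 ± 0.58. In cultured ECs it was between 35.6 and 144 FPKM, a range that overlapped with LSECs, while MACs had 9.56 to 25.3 FPKM. Piezo1, a mechanically gated cation channel that senses shear stress, was at 84.5, 83.8 and 80.7 FPKM in LSECs and between 180 and 593 FPKM in the cultured libraries, so that all LSECs lay below all cultured cells, with a log2 fold change of -1.92 ± 0.23. Map3k3, the kinase that starts the Mapk7 cascade, was higher in cultured ECs than in MACs by 1.48 ± 0.20 and in Akt-RACVECs than in Akt-MACs by 1.31 ± 0.23 on the log2 scale. In the first of these comparisons Hdac5, a Mef2 repressor, differed by -1.18 ± 0.30 and Mef2c by 2.36 ± 0.67. For RACVECs against MACs, 0 of the 14 were called. Mef2c was at 6.80, 19.7 and 8.15 FPKM in RACVECs and at 123, 124 and 77.9 FPKM in Akt-RACVECs, and it was at 156 FPKM in the library labelled Sox17-RACVEC 2 and at 7.57 and 13.2 FPKM in the other Sox17-RACVECs. Its part in the levels of Klf2 was not tested.

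The genes known to follow Klf2 and Klf4 did not move as a block. Of 12 endothelial genes known to be induced, 4 were higher and 3 lower in LSECs than in all cultured cells, with a median of 0.13. Tek, the angiopoietin receptor, was higher by 5.95 ± 0.76 on the log2 scale, Aqp1, a water channel, by 6.85 ± 1.24, Nos3, the endothelial nitric oxide synthase, by 3.46 ± 1.30, and Plvap, a protein of fenestral diaphragms, by 2.08 ± 0.76. Procr, the receptor of protein C, had a log2 fold change of -3.80 ± 0.59, and Cyp1b1, a monooxygenase, -6.56 ± 0.92. Ccn3, a matricellular protein, was listed at 0 in all 3 LSECs and was called lower. Against cultured ECs alone 2 were higher, Aqp1 and Tek, and 4 lower, with S1pr1, the receptor of sphingosine 1-phosphate, the fourth at -1.93 ± 0.30. Of 8 genes known to be repressed, 1 was higher and 3 were lower in LSECs than in all cultured cells, with a median of -2.71. Among the lower, Ccl2, a monocyte chemokine, had a log2 fold change of -4.79 ± 0.40 and Sele, E-selectin, -3.03 ± 1.21, while Kdr, the main VEGF receptor, was higher by 4.59 ± 0.47. Against cultured ECs 5 of these 8 were lower, with Edn1 (endothelin) and Angpt2 added to the 3. Between Akt-RACVECs and Akt-MACs, 6 of the 12 induced genes were higher and 0 lower, with a median of 3.44. These were Tek, Nos3, Plvap, Procr, S1pr1 and Thbd, of which Thbd, thrombomodulin, rose by 2.86 ± 0.72. Of the 8 repressed genes 1 was higher, Kdr, and 1 lower, F3, tissue factor, at -6.93 ± 1.92. Nos3 was between 0 and 2.46 FPKM in all RACVECs, which had 151 to 637 FPKM of Klf2. It was between 62.3 and 898 FPKM in Akt-RACVECs and between 166 and 195 FPKM in LSECs. Other induced genes differed from Nos3 in RACVECs. S1pr1 was between 542 and 880 FPKM there and between 39.1 and 97.9 FPKM in MACs, and Thbd between 686 and 1473 FPKM and between 312 and 602 FPKM. Between RACVECs and MACs, 1 of the 12 induced genes was higher and 0 lower, with a median of 0.91. Of the 7 endothelial markers, all were higher in LSECs than in all cultured cells and in Akt-RACVECs than in Akt-MACs, 2 were higher in LSECs than in cultured ECs, and the markers include Tek and Kdr of these lists. Their part in the counts was not tested.

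Among the genes closest in structure, 7 of 8 other Klf genes were in the files and 4 passed the filter. Klf14 and Klf17 were listed at 0 throughout, and Klf1, the erythroid member, was at most 1.29 FPKM, although red blood cell markers were high in LSECs, where it was listed at 0. Klf12 was higher in LSECs than in all cultured cells (log2 fold change 1.69 ± 0.56), at 4.49 to 9.55 FPKM. Klf8 was called lower, listed at 0 in all 3 LSECs and at up to 13.7 FPKM in cultured cells. Of the 7 tested Sp genes, the relatives that bind GC boxes, Sp4 was higher in LSECs, at 30.1, 24.4 and 20.3 FPKM, with a log2 fold change of 1.61 ± 0.30, and 0 were lower. Sp6 was lower in RACVECs than in MACs (-2.17 ± 0.47), with 8.78, 2.01 and 6.75 FPKM in MACs and at most 0.62 FPKM in RACVECs. Foxo factors, which Akt inactivates, are known to drive Klf2 in other cells. Of 8 Foxo targets, 2 were higher (Cdkn1b and Sesn1) and 1 lower (Sesn3) in LSECs than in all cultured cells. Of all genes, 15.6% were higher and 15.3% lower there. Between Akt-RACVECs and RACVECs 0 of the 8 were called, where 0.221% of all genes were higher and 0.0401% lower. With so few genes called, that count cannot show whether Foxo targets changed, and the part of Foxo factors was not tested.

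The genes most like Klf2 over the 24 libraries, by the Pearson correlation of log2(FPKM + 1) among the other 14963 genes, were Asah2 (0.91), Snrk (0.86), Kank3 (0.86), Map3k3 (0.86) and Exoc3l (0.85). All 24 points share the group differences between amniotic cells and ECs. Asah2, a ceramidase, was at 24.7 to 35.1 FPKM in MACs, at 210.4 to 483 FPKM in Akt-RACVECs and at 150 to 231 FPKM in LSECs. For Klf4 they were Zfp655 (0.78), Zfp292 (0.71), Ier5 (0.70), Meiob (0.69) and Marchf7 (0.66), a weaker likeness, with Ier5 an immediate early gene. Among the members themselves, Klf3 and Klf10 had the highest correlation (0.65), then Klf9 and Klf15 (0.63), Klf3 and Klf4 (0.57), Klf2 and Klf7 (0.53), and Klf2 and Klf4 had 0.46. The lowest was between Klf2 and Klf5 (-0.56).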

How the data were processed

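RNA of 24 libraries was sequenced as paired reads of 51 bp from poly(A) RNA, in 8 groups of 3 taken from the labels. TopHat was used by the authors for mapping to mm9, and Cufflinks for FPKM, scaled by the upper quartile and corrected for sequence bias. The deposited FPKM are listed per RefSeq transcript with 2 decimals. Versions, annotation release, strand and read numbers are not given in the sources used here. The depth is therefore unknown and a value of 0 sets no limit of detection, so the precision given is the spread between libraries. The upper-quartile scaling makes values relative to each library, whose FPKM summed to between 1689486 and 2317294. The labels do not say that every library came from another animal, so p-values measure only the spread between these libraries.

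RefSeq names were joined to current symbols for 26930 of 27583 transcripts, and the transcripts of a symbol were summed, which gave 22282 genes. Values of log2(FPKM + 1) entered a linear model in limma (version 3.58.1, R 4.3.3) that held all 8 groups, with moderated variances that follow the mean. Tests were two-sided, and p-values were adjusted by Benjamini and Hochberg's method over the 14964 genes whose mean FPKM reached 1. A call needed an adjusted p under 0.05 and a fold change larger than 1 in size on the log2 scale. Fold changes on this scale understate the change of low genes. On simulated data with 200 genes changed by a log2 change of 3 among 14964, 192 were recovered and 6 others called. The changed genes were drawn from the more highly expressed ones. They were changed in LSECs alone and tested against all cultured cells only. Recovery of smaller changes, of genes at low FPKM and in the other comparisons was not tested. Summaries and figures used Python 3.11.15, numpy 2.4.6, pandas 2.3.3 and matplotlib 3.10.9. Positions are those of GENCODE M1 on mm9, and promoters those of RefSeq on GRCm38.p6.

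All 10 members are named. Other genes belong to lists of Klf and Sp genes, the flow pathway, genes induced or repressed with Klf2 or Klf4, immediate early, glucocorticoid and circadian genes, Foxo targets, partners of Klf factors and cell type markers, given by counts, with values for genes that were called or have a stated role. Not every called gene is named, and 1 gene of the repressed list is not reported here. The members and lists were chosen with earlier results of these data known. Comparisons of LSECs and Akt-RACVECs with cultured ECs and of Akt-RACVECs with Akt-MACs, and the fit without 5 libraries that stood apart (Sox17-RACVEC 2, Akt-LEC 1, Akt-liver EC 1, Akt-MAC 2 and Akt-MAC 3), were added after seeing the data. Alternatives were pseudocounts of 0.1 and 10, no filter, a mean FPKM of at least 10, the groups compared alone, the replicate number as a block, scaling by the median shift, the highest transcript in place of the sum, no fold limit, the criterion of the study's methods (the fold of mean FPKM past 1 on the log2 scale, with p under 0.05 and no adjustment) and each library left out in turn.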

Additional observations from a re-analysis of the deposited data

How the results depend on the processing

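The alternatives gave 583 values for 29 results, of which 507 kept their direction and their side of the threshold, or a count within 1.5 times of the one reported. Depth is unknown, so no counting error could be given, and the members at low FPKM, Klf5 and Klf15, depended on the pseudocount. With each library left out in turn, the number of members called was between 1 and 4 for LSECs against all cultured cells, between 0 and 1 for LSECs against Akt-liver ECs and for cultured ECs against MACs, between 0 and 3 for LSECs against cultured ECs, and between 1 and 2 for Akt-RACVECs against Akt-MACs. Between LSECs and all cultured cells, the log2 fold change of Klf2 was then between 1.32 and 2.52 and that of Klf4 between -0.285 and 1.1, with the lowest of both, and the change of sign of Klf4, without LSEC 3. For LSECs against Akt-liver ECs, 0 members were called with a pseudocount of 0.1, with no filter on low values and without the 5 libraries that stood apart. For cultured ECs against MACs, 0 were called when only the groups compared were fitted. For LSECs against cultured ECs, 1 was called with a pseudocount of 10, at a mean FPKM of at least 10, which leaves Klf15 untested, and without the 5 libraries. For Akt-RACVECs against Akt-MACs, 1 was called with a pseudocount of 10, with no filter, at a mean FPKM of at least 10, with the replicate block, with scaling by the median shift, without the 5 libraries and when only the groups compared were fitted, and 0 by the criterion of the study. Where not stated, the cause was not tested.

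The correlation of deviations of same-numbered libraries was between -0.2 and 0.571, and above 0.1 in all 3 pairs for none of the comparisons checked. It was highest between Akt-LECs and Akt-liver ECs, at 0.571 and 0.366 for replicates 1 and 2 and -0.0499 for replicate 3. A shared origin of single pairs was not tested. With the replicate number as a block, Klf15 lost its call between Akt-RACVECs and Akt-MACs (adjusted p = 0.0546). There 1 member was called in place of 2, and no other call of a member changed.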
